A study of Mus musculus with 8 samples.

Results

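The comparison described here is the response of kidney epithelial cells to TGF-β1 plus EGF minus the response of mammary epithelial cells to the same factors. It used all 8 of the 8 mouse expression arrays of the series, 1 array per line and state. The kidney tubular lines were mProx and MCT, and the mammary gland lines were EpH4, which the labels mark as resistant to epithelial-mesenchymal transition (EMT), and NMuMG. Stimulated cells received recombinant human TGF-β1 at 3 ng/mL with recombinant human EGF at 3 ng/mL for 24 h. Resting cells went through the same 24 h without the factors, after a preceding 24 h of all cultures in K-1 medium with transferrin and insulin at 5 µg/ml each. Nothing in the labels says how many cultures lie behind an array, so the line is the only replicate, with 2 kidney and 2 mammary lines, and a p-value measures only the spread between these lines.

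For every gene the change of a line is its stimulated level minus its resting level on a log2 scale, so a change of 1 is a doubling of the normalised signal. The kidney minus mammary difference is the mean change of the kidney lines minus the mean change of the mammary lines. A gene is called separated where both kidney changes lay on the same side of both mammary changes, and its gap is the distance between the nearest kidney and mammary change. Of 18193 genes with a probe set of their own, 11408 reached a floor of 5.27, the 40th percentile of mean log2 levels, on at least 1 array of each of the 4 lines. These are called measurable, and all genes named below without a remark belong to them.

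TGF-β binds a pair of serine/threonine kinase receptors that phosphorylate SMAD2 and SMAD3, which enter the nucleus with SMAD4 and turn on matrix genes, cell-cycle inhibitors and their own antagonists. EGF binds a tyrosine kinase receptor that drives the RAS and ERK cascade, whose targets include growth factors, transcription factors and phosphatases that shut ERK off again. In both kidney tubule and mammary epithelium the factors together are a standard way to push cells from an epithelial towards a fibroblast-like state.

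Single markers bore out part of the lines' labelled identity, while counts of kidney markers above the floor at rest did not set the tissues apart. Cdh16, the kidney-specific cadherin, stood at 12.23 in resting mProx and 10.80 in resting MCT cells, against 4.24 in EpH4 and 5.33 in NMuMG. Pax8, a transcription factor of the kidney lineage, stood at 10.90 and 9.66 in resting mProx and MCT, against 5.78 and 5.25 in EpH4 and NMuMG. The water channel Aqp1, made by proximal tubule, stood at 12.84 in resting mProx but at 5.07 in resting MCT cells. Slc34a1, the phosphate carrier that defines mature proximal tubule, lay between 5.26 and 6.01 on all 8 arrays, close to the floor. Of 27 proximal tubule markers, 11 reached the floor in resting mProx and 16 in MCT, against 12 in EpH4 and 13 in NMuMG. Of 18 kidney lineage transcription factors, 11 did in resting mProx and 11 in MCT, against 10 in EpH4 and 11 in NMuMG. Csn2, a milk casein, was below the floor on every array. Of 22 mammary luminal markers, 10 to 12 reached the floor on a kidney array and 11 to 13 on a mammary array, so this count did not set the tissues apart. Pecam1 and Ptprc, which define endothelium and leukocytes, were also below the floor throughout, with highest levels of 4.15 and 4.83. Of the other markers, some reached it, making 5 to 9 of 15 endothelial and 8 to 11 of 16 leukocyte markers, and their part in the results was not tested. As the floor is a 40th percentile, 27022 of all 45037 probe sets had a mean level at or above it. None of these marker counts is therefore read as the presence of a cell type. E-cadherin (Cdh1) stood at 11.84 in resting EpH4 and 10.69 in NMuMG and was below the floor on all 4 kidney arrays. Median signals per array ran from 41.5 to 59.6 before normalisation.

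No gene passed the test of the kidney minus mammary difference. With limma and Benjamini-Hochberg adjustment over all probe sets, 0 of 45037 passed an adjusted p of 0.05 (0%), 2356 had an unadjusted p below 0.05 (5.23%), and the smallest adjusted p was 0.931. The tissues were separated in 3923 of the 11408 measurable genes (34.4%), of which 1789 (15.7%) had both kidney changes above both mammary changes and 2134 (18.7%) had both below. A gap of at least 1 log2 unit was found in 24 genes with the kidney higher (0.21%) and 26 with the kidney lower (0.228%). Over all 45037 probe sets, which include many dim ones, 15337 were separated (34.1%), 7422 with the kidney higher (16.5%) and 7915 with the kidney lower (17.6%). Gaps of at least 0.5 were found in 1151 with the kidney higher (2.56%) and 1149 with the kidney lower (2.55%), and of at least 1 in 195 (0.433%) and 201 (0.446%). The share with the kidney higher was 48.4% of those separated, but 33.1% with the values as deposited, without normalisation between arrays. In that setting 420 measurable genes were separated with the kidney higher and 2359 with the kidney lower, and their median difference was -0.21, against -0.02 with normalisation. All genes below are therefore described by their values, and none is said to differ between the tissues by a test. An exact permutation test of a single value over 2 against 2 lines could not go below a two-sided p of 0.333.

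The changes of the kidney lines were more alike than those of the mammary lines. Across the 11408 measurable genes the change in mProx correlated with that in MCT at a Pearson r of 0.285 (Spearman rho 0.245), whereas EpH4 and NMuMG correlated at 0.109 (rho 0.0819). Across tissues r was 0.25 between MCT and NMuMG, 0.207 between mProx and NMuMG, 0.189 between MCT and EpH4 and 0.087 between mProx and EpH4. These are descriptions across genes, which are not independent, on arrays normalised together. By this measure NMuMG lay closer to either kidney line than to EpH4. The spread of the changes was smallest in EpH4, with an SD of 0.34, against 0.48 in mProx, 0.48 in MCT and 0.46 in NMuMG.

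**Figure D1:**
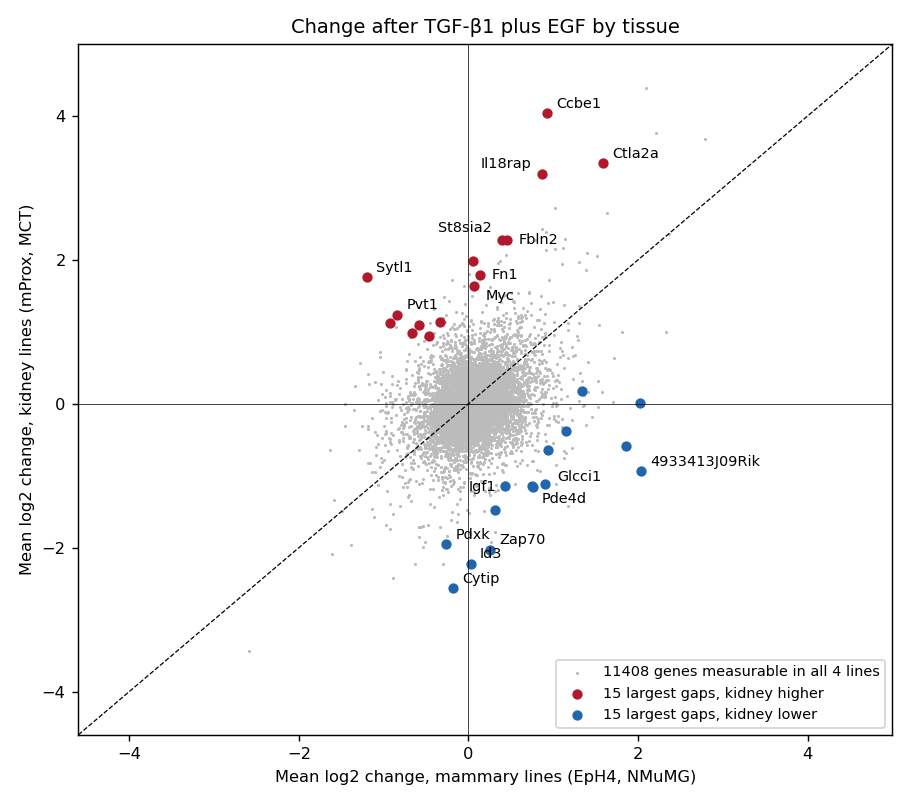
Mean log2 change (stimulated minus resting) of the kidney lines mProx and MCT on the vertical axis against that of the mammary lines EpH4 and NMuMG on the horizontal axis, for the 11408 measurable genes. Each point is a gene, and the dashed line marks equal change. The 15 genes with the largest gaps in each direction are coloured, and Ccbe1, with mean changes of 4.04 in kidney and 0.93 in mammary lines, lies highest among them.

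The 15 measurable genes with the largest gaps on the kidney-higher side were Ccbe1, St8sia2, Sytl1, Padi6, Il18rap, Myc, Pate14, Clec7a, Pvt1, Gp2, Fbln2, Fn1, Ctla2a, Gm6607 and Mybl1. Their gaps ran from 1.22 to 2.24, and the next gene, Ddias, had a gap of 1.19. Of the 24 genes with a gap of at least 1, 15 had a change of 2-fold or more in the mean of the kidney lines alone, 2 in the mammary mean alone, 2 in both the same way, 1 in both in opposite ways and 4 in neither.

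Myc, the growth-promoting transcription factor, had stimulated and resting levels of 10.27 and 8.56 in mProx and of 11.01 and 9.44 in MCT, against 11.74 and 11.81 in EpH4 and 10.74 and 10.53 in NMuMG. The level was thus higher after stimulation by 1.72 and 1.57 in the kidney lines, against changes of -0.07 and 0.21 in the mammary lines. Resting kidney cells held less Myc than either mammary line, and after stimulation the tissues overlapped. The kidney minus mammary difference was 1.58 (SE 0.18), a 2.98-fold ratio of fold changes, with a limma adjusted p of 0.931.

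Pvt1, a long non-coding RNA gene, is the neighbour of Myc on chromosome 15, with 0 annotated genes between them. Its stimulated and resting levels were 8.78 and 7.45 in mProx and 9.07 and 7.90 in MCT, against 11.27 and 11.45 in EpH4 and 7.47 and 8.98 in NMuMG. The changes had opposite signs in the tissues, 1.33 and 1.16 in the kidney lines against -0.18 and -1.51 in the mammary lines, for a difference of 2.09 (SE 0.42). The array carries 5 probe sets for Pvt1 that were measurable in all 4 lines. The other 4 of these were separated in the same direction, with differences of 0.88, 0.95, 1.13 and 1.42. The value depended on NMuMG, without which it was 1.42.

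Fibronectin (Fn1), a matrix glycoprotein and a classical marker of EMT, had stimulated and resting levels of 13.03 and 11.60 in mProx and of 13.12 and 10.98 in MCT, against 12.97 and 12.79 in EpH4 and 13.36 and 13.26 in NMuMG. Its changes were 1.43 and 2.14 in the kidney lines and 0.17 and 0.11 in the mammary lines, a difference of 1.65 (SE 0.24). Both stimulated kidney levels thus lay between the resting levels of the mammary lines, and both resting kidney levels lay below them. The mammary levels lay near the top of the normalised scale, whose highest value was 13.71, and the part of this in the result was not tested.

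Fibulin 2 (Fbln2), a matrix protein that binds fibronectin, was likewise lower in both resting kidney lines than in the resting mammary lines. It stood at 10.06 stimulated and 8.22 resting in mProx and at 9.96 and 7.24 in MCT, against 12.05 and 11.50 in EpH4 and 12.87 and 12.49 in NMuMG. Both kidney lines stayed below both mammary lines in either state, although their changes of 1.84 and 2.71 exceeded the mammary changes of 0.55 and 0.37. The difference was 1.81 (SE 0.29).

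Ccbe1 encodes a secreted protein that helps to activate the lymphatic growth factor VEGF-C. It stood at 8.44 stimulated and 5.10 resting in mProx and at 10.15 and 5.40 in MCT, against 10.06 and 8.96 in EpH4 and 11.50 and 10.74 in NMuMG. Resting kidney cells lay at the floor, and the changes of 3.34 and 4.74 compare with 1.10 and 0.75 in the mammary lines, giving the widest gap of all measurable genes with the kidney higher, 2.24. The difference was 3.11 (SE 0.45), or 2.23 with an offset of 50 in place of 10.6 before the logarithm.

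Ctla2a, which encodes an inhibitor of cysteine proteases, had changes of 3.64 in mProx and 3.04 in MCT, against 1.80 in EpH4 and 1.37 in NMuMG. All 4 lines held more of it after stimulation, and the kidney lines held less than the mammary lines in either state. Il18rap, the accessory chain of the interleukin-18 receptor, had changes of 2.36 and 4.04 in mProx and MCT, against 0.84 and 0.89 in EpH4 and NMuMG, from resting kidney levels of 3.91 and 4.11 that were below the floor. St8sia2, a sialyltransferase that builds polysialic acid, had changes of 2.31 and 2.26 in mProx and MCT, against 0.51 and 0.28 in EpH4 and NMuMG. Stimulated St8sia2 levels of 7.42 and 8.89 in the kidney lines lay above the 6.57 and 7.24 of the mammary lines.

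Dim genes made up much of the remainder. Sytl1, an effector of vesicle secretion, had the largest difference after Ccbe1, 2.96 (SE 0.69), with changes of 2.31 and 1.21 in mProx and MCT against -0.50 and -1.91 in EpH4 and NMuMG, and lay below the floor on 3 arrays. Padi6, an oocyte protein, and Clec7a, a receptor for fungal glucans, were below the floor on 4 arrays each, and Gp2, a secretory granule glycoprotein, on 3. Mybl1, a transcription factor of the Myb family, was above the floor throughout, with changes of 0.95 and 0.94 in mProx and MCT against -0.66 and -0.28 in EpH4 and NMuMG. Across the 15 genes, 8 were below the floor on at least 1 array. For 6 of these genes, 10 further probe sets were measurable in all 4 lines. These had a difference of the same sign, and 8 of them were separated in the same direction. Dimmer probe sets of these genes were not counted.

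**Figure D2:**
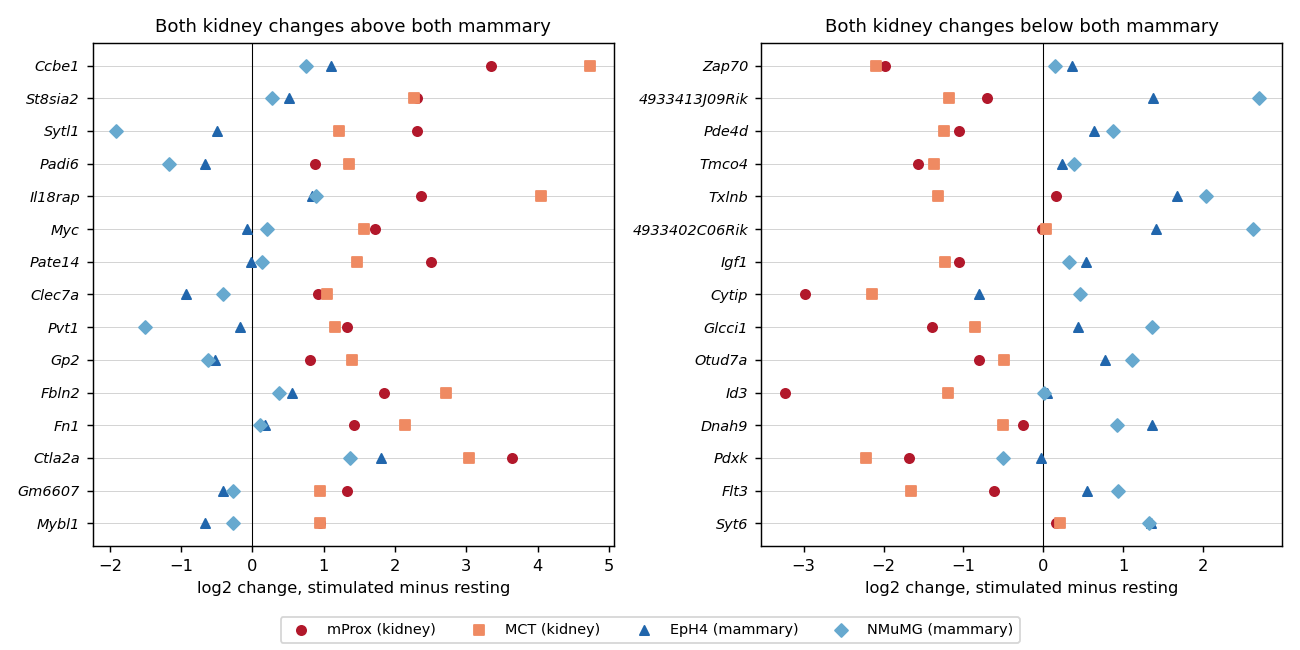
Log2 change (stimulated minus resting, horizontal axis) in each of the 4 lines for the 15 measurable genes with the largest gaps in each direction, kidney lines in red and orange and mammary lines in blue. Each marker is a line, with no error bar because each change rests on 1 pair of arrays. In the left panel both kidney markers lie right of both mammary markers, and in the right panel they lie left of them, as the choice of genes fixes.

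The 15 measurable genes with the largest gaps on the kidney-lower side were Zap70, 4933413J09Rik, Pde4d, Tmco4, Txlnb, 4933402C06Rik, Igf1, Cytip, Glcci1, Otud7a, Id3, Dnah9, Pdxk, Flt3 and Syt6. Their gaps ran from 1.12 to 2.13, and the next gene, L1cam, had a gap of 1.10. These were dimmer genes, since 12 of the 15 were below the floor on at least 1 array. Of the 26 genes with a gap of at least 1, 12 had a change of 2-fold or more in the kidney mean alone, 9 in the mammary mean alone and 5 in neither.

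Id3, an inhibitor of helix-loop-helix transcription factors and a target of BMP signalling, stood at 7.17 stimulated and 10.42 resting in mProx and at 7.11 and 8.29 in MCT, against 5.75 and 5.70 in EpH4 and 7.21 and 7.21 in NMuMG. Both kidney lines held more Id3 than the mammary lines at rest, and the tissues overlapped after stimulation. The changes were -3.24 and -1.19 in the kidney lines against 0.05 and 0.01 in the mammary lines, a difference of -2.24 (SE 0.64). The size rested on mProx, without which it was -1.21.

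Pdxk, the kinase that makes the active form of vitamin B6, was bright in all lines. It stood at 9.28 stimulated and 10.97 resting in mProx and at 7.51 and 9.73 in MCT, against 8.68 and 8.70 in EpH4 and 8.25 and 8.75 in NMuMG. Its changes were -1.68 and -2.22 in the kidney lines and -0.03 and -0.50 in the mammary lines, a difference of -1.69 (SE 0.28), and leaving out any line moved this only between -1.96 and -1.42. As with Id3, the resting kidney levels were above both mammary levels and the stimulated levels overlapped.

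Zap70, a kinase of the T-cell receptor, stood at 5.91 stimulated and 7.89 resting in mProx and at 5.74 and 7.83 in MCT, against 5.98 and 5.61 in EpH4 and 5.90 and 5.74 in NMuMG. The 6 arrays other than resting kidney lay between 5.61 and 5.98, close to the floor, and the difference was -2.29 (SE 0.42). Cytip, a scaffold known from leukocytes, had changes of -2.98 and -2.14 in mProx and MCT against -0.81 and 0.46 in EpH4 and NMuMG. Of the 16 leukocyte markers with a probe set, 8 were measurable. Of these, 0 were separated with the kidney higher, against 15.7% of all measurable genes. With the kidney lower 2 were separated, Csf1r and Lyz2 (25%), near the 18.7% of all measurable genes. Csf1r, the receptor of macrophage colony-stimulating factor, stood at 7.63 stimulated and 10.91 resting in mProx and at 7.02 and 7.58 in MCT, against 7.64 and 7.22 in EpH4 and 7.58 and 7.47 in NMuMG, so resting mProx stood apart from the other arrays. Ptprc stayed below the floor on all 8 arrays.

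Igf1, a growth factor ligand, had stimulated and resting levels of 6.29 and 7.33 in mProx and of 5.26 and 6.49 in MCT, against 6.64 and 6.09 in EpH4 and 6.14 and 5.82 in NMuMG. The difference was -1.57 (SE 0.43), and both other Igf1 probe sets measurable in all 4 lines were separated in the same direction. Glcci1, a gene known for its induction by glucocorticoids, had changes of -1.39 and -0.85 in mProx and MCT against 0.44 and 1.36 in EpH4 and NMuMG. Pde4d, a phosphodiesterase that breaks down cAMP, was the only 1 of the 15 with less signal in resting kidney than in resting mammary cells, and its changes of -1.05 and -1.24 in mProx and MCT compare with 0.63 and 0.88 in EpH4 and NMuMG. Syt6, a synaptotagmin, and 4933402C06Rik owed their gaps to the mammary lines, where their mean changes were 1.34 and 2.02, against 0.18 and 0.01 in the kidney lines.

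The order of the tissues at rest followed the direction of the gap. In 11 of the 15 kidney-higher genes both resting kidney levels lay below both resting mammary levels, against 16.3% of all measurable genes, and in 14 of the 15 kidney-lower genes both lay above, against 20.4%. After stimulation the kidney lines lay below both mammary lines in 2 of the kidney-higher genes and above them in 4, and in the kidney-lower genes they lay below in 7 and above in 1. Over all 11408 measurable genes they lay below in 1978 and above in 2093. The resting arrays enter both the resting order and the change, so the 2 measures are not independent, and this order is a description. Changes of opposite sign in the tissues, with each line of a tissue agreeing in sign, were seen in 7 of the kidney-higher and 10 of the kidney-lower genes. They were seen in 10.9% of all measurable genes, which were not chosen for a large gap.

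**Figure D3:**
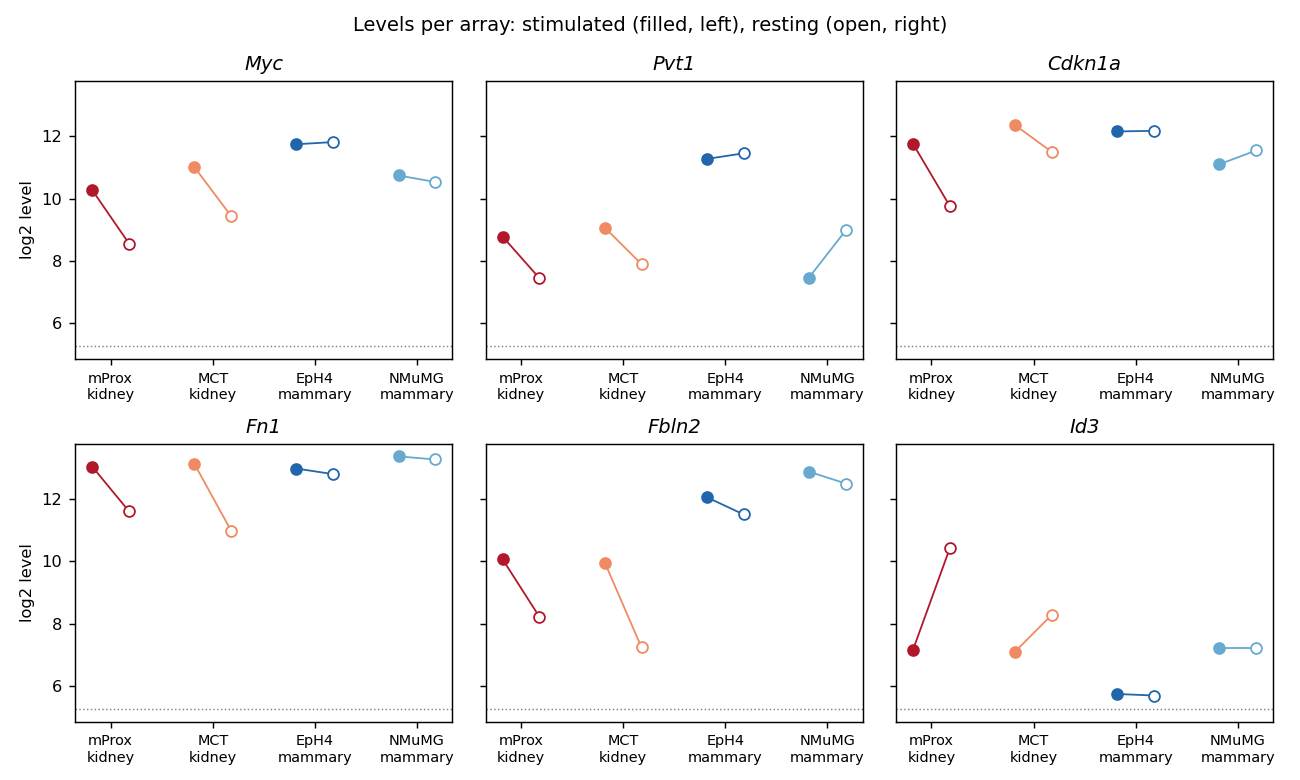
Normalised log2 level of 6 genes on each array, with stimulated cells as filled points on the left and resting cells as open points on the right of each line. The kidney lines stand left of the mammary lines, the dotted line is the floor of 5.27, and each point is 1 array. Fn1 lies inside the mammary range of 12.79 to 13.36 only in stimulated kidney cells, and Id3 lies above the mammary range of 5.70 to 7.21 only in resting kidney cells.

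Inhibitors of cyclin-dependent kinases (CDK), targets of the tumour suppressor p53 and Myc formed the list with the largest share of kidney-higher members among the 14 lists described. Of its 21 measurable members, 14 were separated with the kidney higher (66.7%) and 3 with the kidney lower (14.3%), against 15.7% and 18.7% of all measurable genes, and 0 passed the adjusted test. Their median difference was 0.60, against -0.02 over all measurable genes. A gap of at least 0.5 was found in 6 members with the kidney higher and 0 with the kidney lower, against 1.49% and 1.83% of all measurable genes. Of the 14 kidney-higher members, 12 had both resting kidney levels below both resting mammary levels, against 16.3% of all measurable genes. After stimulation 5 had both kidney levels below, against 1978 of all 11408 measurable genes. These members were picked by a change that includes the resting arrays, so the resting order is not independent of the choice. With the values as deposited, 7 members were separated with the kidney higher and 2 with the kidney lower, against 420 and 2359 of all 11408 measurable genes. The median difference was then 0.42, or 0.63 above that of all measurable genes, against 0.62 above it with normalisation. Leaving out a line moved the median between 0.46 without mProx and 0.74 without MCT.

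3 promoters of this list are shown because they hold the cAMP response element, TGACGTCA, which was found in 3 of the list's 26 promoter windows (11.5%) and in 1.79% of all 32851 windows. It was also found in 2 of 25 windows of the ERK feedback list (8%) and in 2 of 19 windows of the leading kidney-lower genes (10.5%), those of Otud7a and Zap70. Another motif, the E-box CACGTG, was found in more of this list's windows, 5 of 26 (19.2%), against 7.15% of all windows. Those 5 belong to Bax, Bbc3, Cdkn2c, Gadd45b and Gadd45g. The windows run from 250 bases before to 50 after a gene's start in RefSeq on GRCm38.p6. The letters of either motif read the same on both strands, and a match is only a description. Capitals mark the cAMP response element, and each sequence is the 250 bases before the start, 5′ to 3′ on the gene's strand. They lie at chr4:89311033-89311282 on the minus strand for Cdkn2b, chr1:134079156-134079405 on the minus strand for Btg2 and chr13:110394794-110395043 on the plus strand for Plk2.
Cdkn2b: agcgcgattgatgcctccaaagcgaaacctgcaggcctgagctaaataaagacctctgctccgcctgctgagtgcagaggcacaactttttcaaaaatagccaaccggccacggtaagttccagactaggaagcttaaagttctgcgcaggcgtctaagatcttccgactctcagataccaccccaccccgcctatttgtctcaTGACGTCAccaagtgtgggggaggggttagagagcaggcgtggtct
Btg2: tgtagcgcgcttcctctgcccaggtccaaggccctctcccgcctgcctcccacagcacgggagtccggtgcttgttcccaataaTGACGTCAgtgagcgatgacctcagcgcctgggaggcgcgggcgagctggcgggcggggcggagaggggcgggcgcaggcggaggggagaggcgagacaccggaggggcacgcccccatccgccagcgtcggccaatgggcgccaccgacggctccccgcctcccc
Plk2: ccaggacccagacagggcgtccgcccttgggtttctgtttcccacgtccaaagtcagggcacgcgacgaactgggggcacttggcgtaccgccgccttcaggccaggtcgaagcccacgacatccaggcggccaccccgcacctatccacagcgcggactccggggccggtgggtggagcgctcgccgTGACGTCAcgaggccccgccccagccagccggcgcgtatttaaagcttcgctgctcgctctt

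Cdkn1a, which encodes the CDK inhibitor p21, stood at 11.75 stimulated and 9.76 resting in mProx and at 12.35 and 11.49 in MCT, against 12.15 and 12.17 in EpH4 and 11.10 and 11.54 in NMuMG. The changes were 2.00 and 0.86 in the kidney lines against -0.01 and -0.44 in the mammary lines, a difference of 1.65 (SE 0.37), or 1.08 without mProx. Cdkn2b, which encodes the CDK inhibitor p15 and is a classical TGF-β target, stood at 10.57 stimulated and 9.02 resting in mProx and at 10.58 and 9.20 in MCT, against 3.73 and 4.10 in EpH4 and 11.78 and 11.63 in NMuMG. EpH4 lay below the floor in both states, so Cdkn2b is not among the measurable members, and the gap of 1.23 is between the kidney lines and NMuMG, whose change was 0.15.

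The p53 targets Trp53inp1, Zmat3, Btg2 and Mdm2 had smaller differences of the same sign as Cdkn1a, while the p53 target Sesn1, picked after its values were seen, had -0.46. Trp53inp1, a stress-induced p53 cofactor, had changes of 1.18 and 0.93 in mProx and MCT against -0.25 and -0.02 in EpH4 and NMuMG, a difference of 1.19 (SE 0.17). Zmat3, a p53-induced RNA-binding protein, had changes of 1.41 and 0.82 in mProx and MCT against 0.02 and -0.17 in EpH4 and NMuMG. Btg2, an anti-proliferative p53 target, had changes of 0.95 and 1.00 in mProx and MCT against -0.03 and -0.29 in EpH4 and NMuMG, a difference of 1.13 (SE 0.20), and Mdm2, the ubiquitin ligase that holds p53 down, had a smaller difference of 0.59 (SE 0.15).

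In other members the nearest kidney and mammary changes lay close, although the lines spread widely. Plk2, a kinase induced by p53, had changes of 1.49 in mProx and 0.21 in MCT against 0.13 in EpH4 and -0.32 in NMuMG, so that its gap was only 0.08. Gadd45a, a growth-arrest gene, had changes of 1.50 and 1.32 in mProx and MCT but also 1.22 in NMuMG, against -0.14 in EpH4. The separated members on the kidney-lower side were Sesn1, Cdkn2d and Cdkn1b, with differences of -0.46, -0.51 and -0.29. The 10 further probe sets of the kidney-higher members that were measurable in all 4 lines had differences of the same sign. Of these, 9 were separated the same way.

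Feedback genes of the ERK pathway and ETS transcription factors showed a similar lean. Of 26 measurable members, 11 were separated with the kidney higher (42.3%) and 0 with the kidney lower, against 15.7% and 18.7% of all measurable genes. The median difference was 0.45, and 0 passed the adjusted test. Without MCT the median was 0.26, against -0.01 for all measurable genes. Separated members are not counted in that setting, because the rule is more easily met with 1 kidney line. A gap of at least 0.5 was found in 6 members (23.1%), all with the kidney higher, against 1.49% of all measurable genes. Among members that were not measurable in every line, Spry4, an inhibitor of receptor tyrosine kinase signalling, had a gap of 0.63 and the early response gene Egr3 one of -0.34. As deposited, 6 were separated with the kidney higher and 1 with the kidney lower, against 420 and 2359 of all 11408 measurable genes. The median was then 0.18, against -0.21 for all measurable genes. Myc counts in this list as well as in the last.

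Dusp5, a nuclear phosphatase that switches off ERK, stood at 7.43 stimulated and 4.86 resting in mProx and at 8.74 and 6.53 in MCT, against 7.55 and 7.13 in EpH4 and 8.46 and 7.05 in NMuMG. The changes of 2.57 and 2.22 in the kidney lines compare with 0.42 and 1.41 in the mammary lines, a difference of 1.48, or 0.98 without EpH4, and 1 array, resting mProx, was below the floor. Its promoter is shown because it was the only 1 of the list's 25 windows with a CArG box, the site of serum response factor, which 1.63% of all windows hold. It lies at chr19:53528895-53529144 on the plus strand, and the capitals mark 2 adjoining matches to the CArG box, a pattern that matches on either strand.
Dusp5: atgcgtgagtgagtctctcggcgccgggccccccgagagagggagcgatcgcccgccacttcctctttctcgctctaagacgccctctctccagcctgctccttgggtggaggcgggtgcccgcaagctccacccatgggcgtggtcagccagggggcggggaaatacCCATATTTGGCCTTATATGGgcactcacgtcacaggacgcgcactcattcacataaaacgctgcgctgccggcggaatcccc

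Dusp6, the cytoplasmic ERK phosphatase, stood at 10.88 stimulated and 8.44 resting in mProx and at 10.10 and 8.63 in MCT, against 7.44 and 6.51 in EpH4 and 10.27 and 10.51 in NMuMG. Its changes were 2.44 and 1.47 in the kidney lines and 0.92 and -0.24 in the mammary lines, a difference of 1.61 (SE 0.46), which was 1.03 without NMuMG and 2.19 without EpH4. Fosl1, an AP-1 subunit, had changes of 2.30 and 0.94 in mProx and MCT against 0.35 and 0.15 in EpH4 and NMuMG, a difference of 1.37 that was 0.69 without mProx.

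Lif, a secreted cytokine, had changes of 0.90 and 1.26 in mProx and MCT against 0.05 and -0.16 in EpH4 and NMuMG, a difference of 1.13 (SE 0.24). Dusp1, a phosphatase of several MAP kinases, had changes of 1.09 and 0.59 in mProx and MCT against -0.22 and -0.26 in EpH4 and NMuMG. The ETS factors Etv4 and Etv5 were not separated: Etv4 had changes of 3.03 in mProx and 0.90 in MCT against 1.07 in EpH4 and 1.53 in NMuMG, and without mProx its difference of 0.67 became -0.40. Etv5 followed the same pattern, with changes of 2.91 and 1.27 in mProx and MCT against 1.30 and 1.49 in EpH4 and NMuMG.

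**Figure D4:**
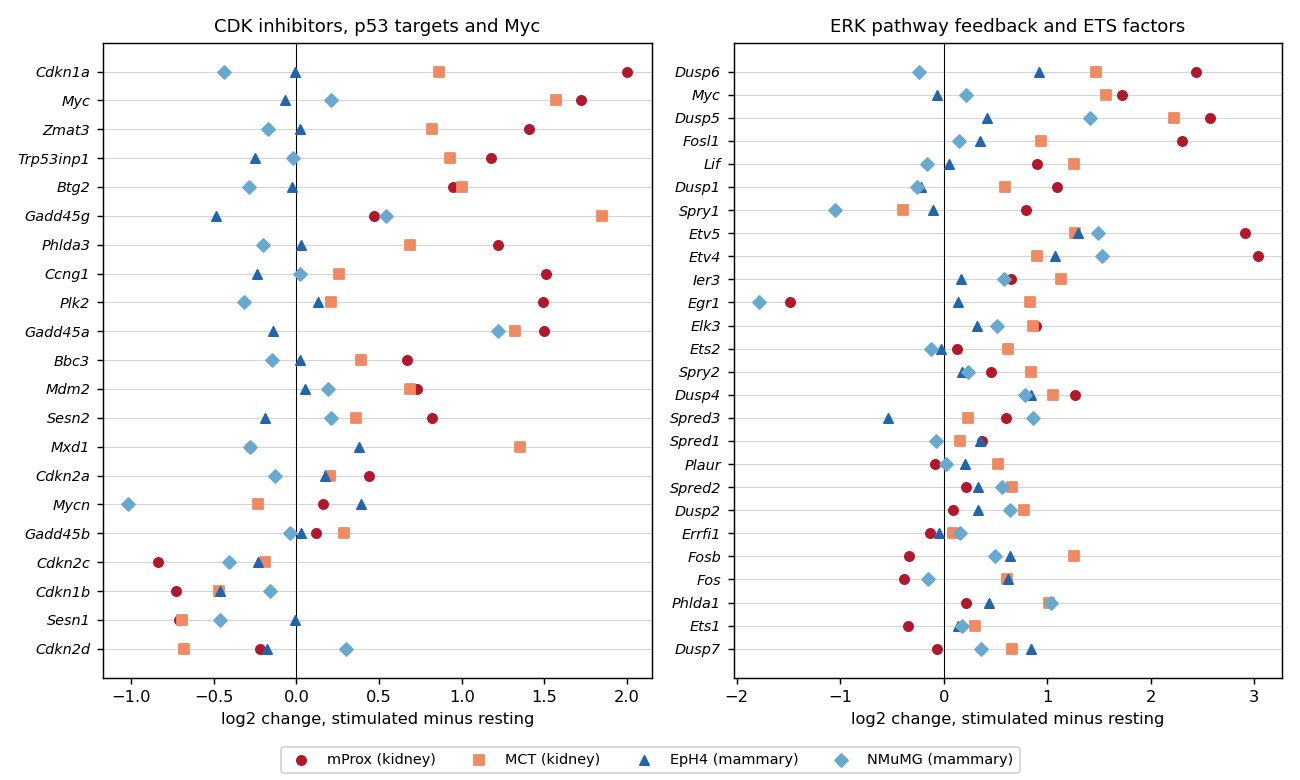
Log2 change (stimulated minus resting, horizontal axis) of each measurable member of the list of CDK inhibitors, p53 targets and Myc (left, 21 genes) and of the ERK feedback list (right, 26 genes), ordered by the kidney minus mammary difference. Red and orange markers are the kidney lines, blue markers the mammary lines, and each marker rests on 1 pair of arrays. Both kidney markers lie right of both mammary markers in 14 genes on the left and 11 on the right.

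The ligands, receptors and SMAD proteins of the TGF-β and activin pathway leaned the other way by count. Of 21 measurable members, 9 were separated with the kidney lower (42.9%) and 4 with the kidney higher (19%), against 18.7% and 15.7% of all measurable genes. The median difference was -0.16, and 0 passed the adjusted test. As deposited the counts were 9 and 1, in a setting where 2359 and 420 of all 11408 measurable genes were separated. The median then lay -0.13 from that of all measurable genes, against -0.14 with normalisation. Leaving out a line moved this distance between -0.23 without NMuMG and -0.04 without EpH4. Without mProx the median difference was -0.10, against -0.03 for all measurable genes. Separated members are not counted there, because the rule is more easily met with 1 kidney line. Tgfbr3, the co-receptor betaglycan, stood at 9.16 stimulated and 10.72 resting in mProx and at 9.54 and 10.40 in MCT, against 8.13 and 7.39 in EpH4 and 6.29 and 6.62 in NMuMG, a difference of -1.41 (SE 0.41), or -0.88 without EpH4. The kidney lines held more of it than the mammary lines in either state. The ligand Tgfb1 had changes of -0.53 and -0.10 in mProx and MCT against 0.41 and 0.55 in EpH4 and NMuMG, a difference of -0.79 (SE 0.22). Its other probe set that was measurable in all 4 lines had the opposite sign.

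Inhba, which encodes the activin A subunit, had a larger difference. It stood at 8.32 stimulated and 6.43 resting in mProx and at 8.90 and 7.53 in MCT, against 9.05 and 9.87 in EpH4 and 10.37 and 9.66 in NMuMG. Its difference of 1.69 (SE 0.49) was 0.92 without EpH4, whose change was -0.82, and as deposited the tissues were not separated. Follistatin (Fst), which binds and blocks activin, had changes of 1.78 in mProx and 0.08 in MCT against -0.83 in EpH4 and -0.55 in NMuMG, a difference of 1.62. It was 0.77 without mProx and 2.48 without MCT, and as deposited the gap was 0.01.

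Direct TGF-β/SMAD targets were mixed. Of 24 measurable members, 6 were separated with the kidney higher (25%) and 7 with the kidney lower (29.2%), against 15.7% and 18.7% of all measurable genes. As deposited 2 and 7 were, in a setting where 420 and 2359 of all 11408 measurable genes were. The median difference of the list with normalisation was 0.24. The median was 0.42 without mProx and -0.05 without MCT, so its sign rested on MCT. Skil, a SMAD co-repressor, had changes of 0.87 and 1.37 in mProx and MCT against 0.38 and 0.59 in EpH4 and NMuMG, so the direction of its change was shared by all lines. Smad7, the inhibitory SMAD of the TGF-β receptor, had changes of 0.01 and 0.60 in mProx and MCT against 0.95 and 0.79 in EpH4 and NMuMG, a difference of -0.57 (SE 0.25), or -0.27 without mProx. The kidney lines held less Smad7 than the mammary lines in either state. The only other Smad7 probe set measurable in all 4 lines had a difference of opposite sign.

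Among 15 measurable BMP and Id genes, 2 were separated with the kidney higher (13.3%) and 4 with the kidney lower (26.7%), near the 15.7% and 18.7% of all measurable genes. Their median of -0.09 was 0.14 without mProx. Smad6, the inhibitory SMAD of BMP signalling, had changes of -0.80 and -0.28 in mProx and MCT against 0.47 and 0.22 in EpH4 and NMuMG, a difference of -0.89. Id1 had changes of -0.77 and -0.07 in mProx and MCT against 0.11 and 0.07 in EpH4 and NMuMG. Id2 was not separated, with changes of -1.55 in mProx and -1.43 in MCT against -0.13 in EpH4 and -2.84 in NMuMG.

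Matrix genes did not lean one way. Of 26 measurable matrix glycoproteins and proteoglycans, 7 were separated with the kidney higher (26.9%) and 6 with the kidney lower (23.1%), and of 29 collagens and their processing enzymes 3 were higher (10.3%) and 7 lower (24.1%). The shares over all measurable genes were 15.7% higher and 18.7% lower. Beside Fn1 and Fbln2, the laminin chain Lamb3 had changes of 2.06 and 1.84 in mProx and MCT against 1.06 and 1.15 in EpH4 and NMuMG. Another laminin chain, Lama3, had changes of -1.54 and 0.03 in mProx and MCT against 1.50 and 0.76 in EpH4 and NMuMG, with 3 arrays below the floor. Lox, which cross-links collagen, had changes of -0.45 and -1.16 in mProx and MCT against 1.20 and 0.31 in EpH4 and NMuMG, and it was bright only in NMuMG, at 12.41 stimulated and 12.10 resting. The medians of both lists, 0.06 for the glycoproteins and -0.10 for the collagens, lay near that of all measurable genes.

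Of 21 measurable matrix proteases and inhibitors, 3 were separated each way (14.3% each), near the 15.7% higher and 18.7% lower of all measurable genes. Mmp2, a gelatinase, had changes of 1.05 and 0.66 in mProx and MCT against -0.43 and -0.31 in EpH4 and NMuMG. Adamts4, which cleaves aggrecan, had changes of -0.26 and 0.18 in mProx and MCT against 1.85 and 1.21 in EpH4 and NMuMG, a difference of -1.57. Of 9 measurable integrins, 0 were separated with the kidney higher and 3 with the kidney lower (33.3%, against 18.7% of all measurable genes), and 2 of the 9 had a gap of at least 0.5 with the kidney lower (22.2%, against 1.83%). Itga5, the α chain of the fibronectin receptor, stood at 7.40 stimulated and 7.24 resting in mProx and at 6.81 and 6.92 in MCT, against 8.14 and 7.21 in EpH4 and 8.86 and 6.38 in NMuMG. Its changes thus ran opposite in tissue order to those of its ligand Fn1, and its difference of -1.69 was -0.91 without NMuMG.

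**Figure D5:**
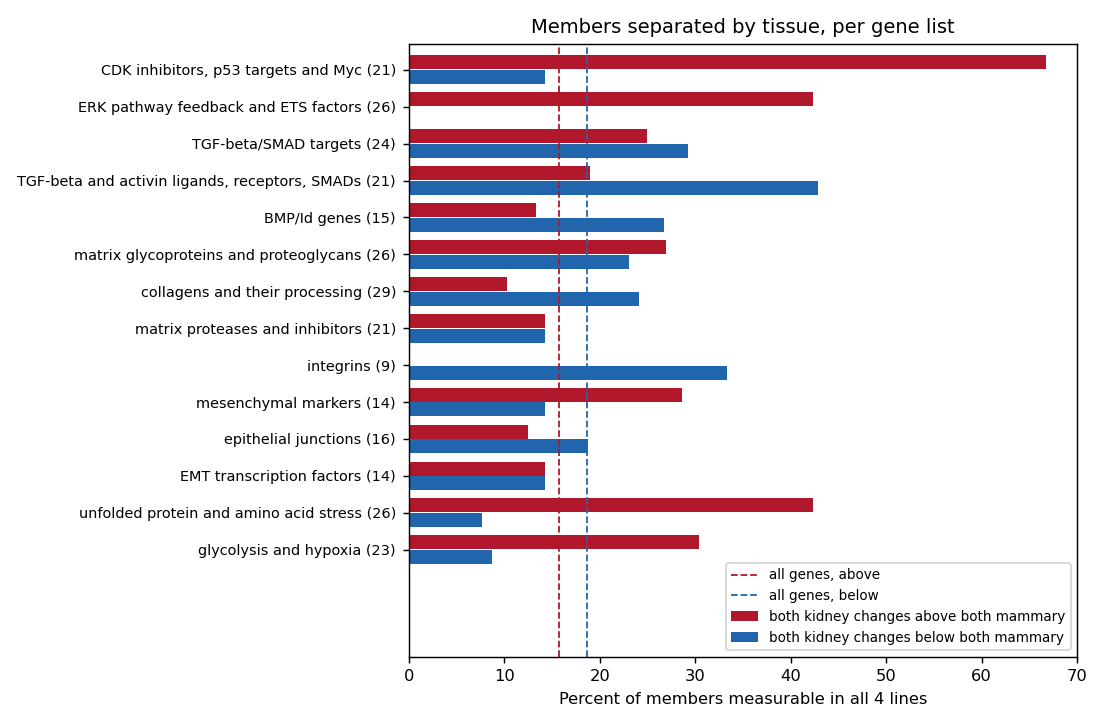
Percent of the measurable members of 14 gene lists (horizontal axis, number of measurable members in brackets) with both kidney changes above both mammary changes (red) or below them (blue). Dashed lines give the shares over all 11408 measurable genes, 15.7% above and 18.7% below. The red bar is longest for CDK inhibitors, p53 targets and Myc, at 66.7%, and the blue bar for TGF-β and activin ligands, receptors and SMADs, at 42.9%.

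The lists used to score the transition itself held separated members in both directions. Of 14 measurable mesenchymal markers 4 were separated with the kidney higher (28.6%) and 2 with the kidney lower (14.3%), of 16 epithelial junction genes 2 (12.5%) and 3 (18.8%), and of 14 EMT transcription factors 2 and 2 (14.3% each). Among all measurable genes the shares were 15.7% and 18.7%. In these 3 lists the gaps of at least 0.5 were those of Fn1 and Itga5, given above, Hmga2 and Krt18. Hmga2, a chromatin protein that induces Snai1, had changes of 1.93 and 2.34 in mProx and MCT against 1.06 and 0.76 in EpH4 and NMuMG, a difference of 1.22. Snai1, a repressor of E-cadherin, overlapped, with changes of -0.09 and 0.76 in mProx and MCT against 0.42 and 1.67 in EpH4 and NMuMG. The repressor Zeb1 differed by 0.14, or -0.06 as deposited, and vimentin (Vim) by -0.05, or 0.05 with median centring, with vimentin bright in mProx, MCT and NMuMG and below the floor in EpH4.

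Cdh1 could not be compared, since its kidney levels of 3.57 and 3.53 in mProx and 4.47 and 3.87 in MCT were below the floor, although its mammary changes were -0.23 in EpH4 and -0.62 in NMuMG. Krt18, a keratin of simple epithelia, had changes of 1.33 and 0.98 in mProx and MCT against 0.39 and 0.28 in EpH4 and NMuMG, with less Krt18 in the resting kidney lines. Cldn4, a tight junction protein, had changes of 0.25 in mProx and 4.33 in MCT against 0.52 in EpH4 and 1.75 in NMuMG, and was not separated. Acta2 was below the floor on all 8 arrays.

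Stress and glycolysis genes had median kidney minus mammary differences above 0 when all 4 lines were used. Of 26 measurable genes of the unfolded protein and amino acid stress responses, 11 were separated with the kidney higher (42.3%) and 2 with the kidney lower (7.69%). The shares over all measurable genes were 15.7% and 18.7%. A gap of at least 0.5 with the kidney higher was found in 1 of the 26 (3.85%), against 1.49% of all measurable genes. As deposited, 4 and 0 were separated, in a setting where 420 and 2359 of all 11408 measurable genes were. The median of the stress list, 0.22, was 0.12 without mProx. Trib3, a pseudokinase induced by amino acid stress, had changes of 1.02 and 0.55 in mProx and MCT against -0.01 and -0.30 in EpH4 and NMuMG. Of 23 measurable glycolysis and hypoxia genes, 7 were separated with the kidney higher (30.4%) and 2 with the kidney lower (8.7%), and as deposited 1 and 2 were. A gap of at least 0.5 with the kidney higher was found in 1 of the 23 (4.35%). The median of these genes, 0.28, rested on mProx, without which it was -0.09. Slc2a1, the glucose transporter GLUT1, had changes of 1.23 and 1.11 in mProx and MCT against 0.53 and 0.05 in EpH4 and NMuMG, and Hk2, a hexokinase, had changes of 1.76 and 0.94 in mProx and MCT against 0.18 and 0.49 in EpH4 and NMuMG but was not separated as deposited.

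No motif that was searched was shared by all leading genes with a promoter window, and other sequence elements were not looked for. Windows in the RefSeq table were found for 9 of the 15 kidney-higher genes and 13 of the 15 kidney-lower genes. On either strand, the AP-1 site TGANTCA was found in 3 of 11 kidney-higher windows (27.3%), in Ctla2a and Pate14. It was found in 3 of 19 kidney-lower windows (15.8%), in Igf1, Syt6 and Tmco4, against 7.81% of all windows. The E-box CACGTG, which Myc binds, was found in 0 of the 11 and in 5 of the 19 (26.3%), in Flt3, Pdxk, Syt6 and Zap70, against 7.15% of all windows. The full p53 response element was found in 0 of the 26 windows of the CDK inhibitor list, and in 3 of all 32851 windows.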

How the data were processed

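Total RNA of 4 lines was hybridised to 8 single-colour Affymetrix Mouse Genome arrays. The deposited values are linear intensity signals, 1 per probe set and array, made by the authors with MAS5, per the submitters' processing notes. The scaling and version of MAS5 were not given in the sources used here. The number of arrays limits the precision.

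From these, 64 control probe sets of 45101 were dropped. Signals were raised by 10.6, which is the 25th percentile of those above 0, and their log2 values were quantile-normalised because array medians differed by 0.43. limma 3.58.1 in R 4.3.3 (lmFit, eBayes with an intensity trend) fitted line as a block, treatment, and treatment by tissue, with 2 residual degrees of freedom, and p-values were adjusted by Benjamini-Hochberg over 45037 probe sets. Arrays were paired by line name, and both arrays of a line deviated together from their state's mean (r of 0.762 to 0.8866 over 27022 probe sets). The script was tested on simulated data.

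Symbols came from the platform table, checked through Entrez identifiers on GRCm38.p6. 34945 probe sets had 1 symbol, 932 several and 9160 none, and 34741 were matched. Each gene took its brightest probe set, avoiding cross-hybridising designs. Named genes were the 15 largest gaps each way, 5 each way among genes not measurable in every line, up to 4 members per described list and a panel. Of 33 gene lists, 14 are described. The members, lists and rule were chosen with earlier results of these data known. Alternatives were other normalisations, offsets of 1 and 50, a level filter, 1 probe set per gene, no block, no trend, and leaving out each line.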

Additional observations from a re-analysis of the deposited data

Results flagged for a closer look

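Of the 99 genes looked at, 40 had both kidney lines moving one way and both mammary lines the opposite way. This also held for 1249 of the 11408 measurable genes (10.9%), and 27 of the 40 had been chosen for a large gap. Some of these changes were close to 0, such as 0.05 and 0.01 for Id3 in the mammary lines and -0.01 for Cdkn1a in EpH4. The difference itself was tested with limma and passed in 0 of them, with adjusted p-values of 0.931 or above. The values below are kidney minus mammary differences of log2 changes.

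Among the 19 with the kidney higher, the secretion effector Sytl1 had 2.96, Pvt1 2.09, Padi6 2.04, Clec7a 1.66, Gp2 1.67, Gm6607 1.49 and Mybl1 1.41. The CDK inhibitor Cdkn1a had 1.65 and the p53 cofactor Trp53inp1 1.19. Follistatin (Fst) had 1.62, the gelatinase Mmp2 1.22, the hypoxia target Ankrd37 1.04 and the stress gene Trib3 0.94. E-cadherin (Cdh1) had 0.74, with both kidney lines below the floor. Among genes not measurable in every line, 1700006J14Rik had 2.73, Gpx6 2.53, Trav9d-3 2.40, Fut7 1.94 and Asic1 1.87.

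Among the 21 with the kidney lower, 4933413J09Rik had -2.98, Zap70 -2.29, Id3 -2.24, Glcci1 -2.02, Pde4d -1.90, Flt3 -1.89, Tmco4 -1.77, Otud7a -1.59, Igf1 -1.57 and Dnah9 -1.53. The collagen cross-linker Lox had -1.55, the proteoglycan Gpc3 -1.07, the epithelial transcription factor Grhl2 -1.04, Smad6 -0.89, the desmosome protein Pkp2 -0.54 and Id1 -0.52. Among genes not measurable in every line, Slc16a12 had -2.32, Calcrl -2.26, 4930529I22Rik -1.98, Kcnj12 -1.94 and Pcdhb11 -1.81.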

How the results depend on the processing

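The count of probe sets past the adjusted threshold was 0 in every setting run, with 656 probe sets below an unadjusted p of 0.05 in limma without the line as a replicate block, against 2356 with it, and the smallest adjusted p over the alternatives was 0.0749, with the values as deposited. The paired fit with the block is the one reported. Gaps of at least 1 log2 unit, 195 probe sets with the kidney higher and 201 lower, became 761 and 741 with an offset of 1, 17 and 20 with an offset of 50, 80 and 72 with the level filter, and 24 and 26 over measurable genes (added after seeing the data). Leaving out a line gave 1014 to 1378 higher and 1069 to 1191 lower, since a single line then stands for its tissue and a gap is easier to reach. Dim signal limits these counts: 59% of the higher and 64.2% of the lower probe sets had a mean level below the floor.

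The fit without the block, the fit without the trend and the level filter leave a gene's difference as it is. Of 792 values of the 99 named genes under the 8 alternatives that can move it, 772 kept their direction. Of 84 named genes separated, 10 were not as deposited: Pmepa1, Inhba, Acvr1, Ltbp1, Gpc3, Sparc, Twist2, Ankrd37, Hk2 and Vim. Leaving out a line moved the difference by over 1.5 times in 46 of the 99 genes, 2 of them among the 30 with the largest gaps. The remaining 20 values, in 12 genes, turned sign, and the cause was not tested. Leaving out a line took the kidney minus mammary difference of Timp3 to between -1.91 without MCT and 0.02 without mProx, Mmp23 to between -0.50 without MCT and 2.19 without mProx, Itga6 to between -0.21 without mProx and 1.64 without MCT, and Cldn4 to between -0.89 without MCT and 3.20 without mProx. Etv4 ran from -0.40 without mProx to 1.73 without MCT, Etv5 from -0.12 to 1.52 without the same lines, and Zeb1 from -0.00 without MCT to 0.28 without mProx. Snai2 ran from -0.33 without EpH4 to 1.24 without NMuMG, Mmp9 from -2.18 without NMuMG to 2.05 without EpH4 (0.88 without mProx), and Id2 from -1.36 without NMuMG to 1.35 without EpH4 (0.06 without mProx). Acta2 ran from -0.68 without MCT to 0.75 without mProx (-0.27 without EpH4). As deposited, Zeb1 had -0.06 and Acta2 -0.02, with an offset of 1 Mmp9 had 0.78 and Id2 0.08, with an offset of 50 Vim had 0.01 and with median centring 0.05. The 30 genes with the largest gaps stayed separated the same way under the 4 other scalings and offsets, and a gap of at least 1 was kept as deposited by 9 of the 15 kidney-higher and 15 of the 15 kidney-lower genes, and with an offset of 50 by 9 and 6.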
